A study of Mus musculus with 6 samples.

Results

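DNA damage repair genes were examined in mouse neuro2a (N2a) neuroblastoma cells in which the transcription factor NF-Y was knocked down. The group held 57 genes. They covered damage signalling, homologous recombination, the Fanconi anaemia pathway, end joining, base excision repair, mismatch repair, nucleotide excision repair and translesion synthesis. The genes were chosen by what their proteins do in repair, with earlier results of these data known. Of the 57 genes, 56 were tested among 16510 genes, and Rad51c had no probe matched by accession. RNA was measured on 6 single-colour Agilent mouse arrays. The 3 control arrays carried N2a cells transfected with an empty RNAi vector, which the labels call Vector knockdown, and the 3 knockdown arrays carried N2a cells transfected with RNAi vectors against both NF-YA and NF-YC. Both groups were the same line without added DNA damage in the labels, the vectors encode a green fluorescent protein beside the RNAi cassette, and transfected cells are not stated to have been sorted, so untransfected cells may be part of each sample. The labels do not say whether samples of a group were separate cultures, so p-values measure the spread between these samples, which may be technical.

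Cells repair each kind of DNA lesion by a pathway of its own. Double-strand breaks are resected and copied from the sister chromatid in homologous recombination, or sealed directly in end joining, while the Fanconi anaemia proteins open crosslinks between strands. Excision pathways take out damaged bases, mispaired bases or bulky adducts, and translesion polymerases copy past lesions that remain. NF-Y is a trimer of NF-YA, NF-YB and NF-YC that binds the CCAAT box in promoters, and promoters of many genes active in dividing cells carry that box.

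A value below is a probe's scanner signal in log2 relative to the signal at the 75th percentile of the same array, so that 0 is that percentile, and a change is knockdown minus control on this log2 scale. A gene was read from its brightest tested probe. It passed the test at a Benjamini-Hochberg adjusted p below 0.05 in limma, and a change over 1.5-fold was counted in addition. The targeted genes checked the labels: Nfya lay at 0.14, 0.15 and 0.21 on the control arrays and at -0.66, -0.52 and -0.59 on the knockdown arrays, and Nfyc fell from a mean of 3.97 to 2.17, a change of -1.81. Nfyb, which was not targeted, rose by 0.83. From 61.9% to 66.2% of spots were well above background on an array, correlations between arrays were 0.989 to 0.994 within groups and 0.987 to 0.990 between them, and no pair of arrays was identical. Of 15 markers of sympathetic neuroblastoma cells, 14 were tested and all 14 were well above background on every array. Among markers of other cells, 4 of 6 tested fibroblast, 4 of 6 immune, 4 of 6 glial and 4 of 6 epithelial and endothelial genes were also well above background on all 6 arrays, and Col3a1, Lum, Epcam and Cdh5 were so on none. Mean log2 values of the lists ran from 3.02 to 3.05 in control and 2.98 to 3.03 in knockdown for neuroblastoma markers (4 lower, 3 higher), from -5.27 to -4.97 and -5.19 to -4.92 for fibroblast markers (1 lower, 1 higher), and from -3.18 to -2.90 and -3.07 to -2.70 for epithelial and endothelial markers (0 lower, 2 higher). They ran from -1.99 to -1.80 and -2.22 to -2.06 for immune markers and from -3.38 to -3.25 and -3.73 to -3.57 for glial markers (1 lower, 0 higher in each), so that immune and glial lists lay lower on every knockdown array. The labels name N2a cells only, and whether the levels of these lists bear on the changes of repair genes was not tested. All arrays were on 1 slide. Its first row held the 3 controls and knockdown 1, and its second row held knockdown 2 and knockdown 3, so a fit with slide row as a block rests on knockdown 1 against the controls.

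The repair genes moved in both directions and mostly by little. In the knockdown 12 were lower, which is 21.4% of the 56, where 15.7% of all genes tested were lower. Another 7 were higher, or 12.5%, against 15.7% of all genes. The lower genes were Fanca, Xrcc2, Mutyh, Polk, Xrcc3, Fancg, Brca1, Nbn, Bard1, Fanci, Rad51d and Pms2, and the higher ones were Ercc1, Wrn, Lig4, Chek2, Xrcc4, Fancm and Rad52. The median change was 0.0026 over the 56 genes and 0.0054 over all genes, with 28 repair genes below 0 and 28 above it. All 56 were well above background on all 6 arrays. When arrays were scaled to their median in place of the 75th percentile, 11 were lower and 1, Ercc1, was higher, while over all 16510 genes the counts went from 2590 lower and 2595 higher to 2494 lower and 853 higher. In such bulk RNA fewer cells with a transcript and less of it per cell cannot be told apart.

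Only Ercc1 passed with a change over 1.5-fold. Among all genes 3.91% rose by that much. No repair gene fell by over 1.5-fold with an adjusted p below 0.05, where 4.99% of all genes did, and Fanca came closest at 1.49-fold. Without the demand on fold or test, all 3 knockdown arrays lay below all 3 controls for 19 repair genes, or 33.9%, against 27.0% of all genes, and above them for 13, or 23.2%, against 27.7%. The remaining 24 overlapped. With slide row as a block 3 repair genes were lower, Fanca, Xrcc2 and Polk, where 6.03% of all genes were lower, and 2 were higher, Ercc1 and Wrn, where 5.46% of all genes were.

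**Figure D1:**
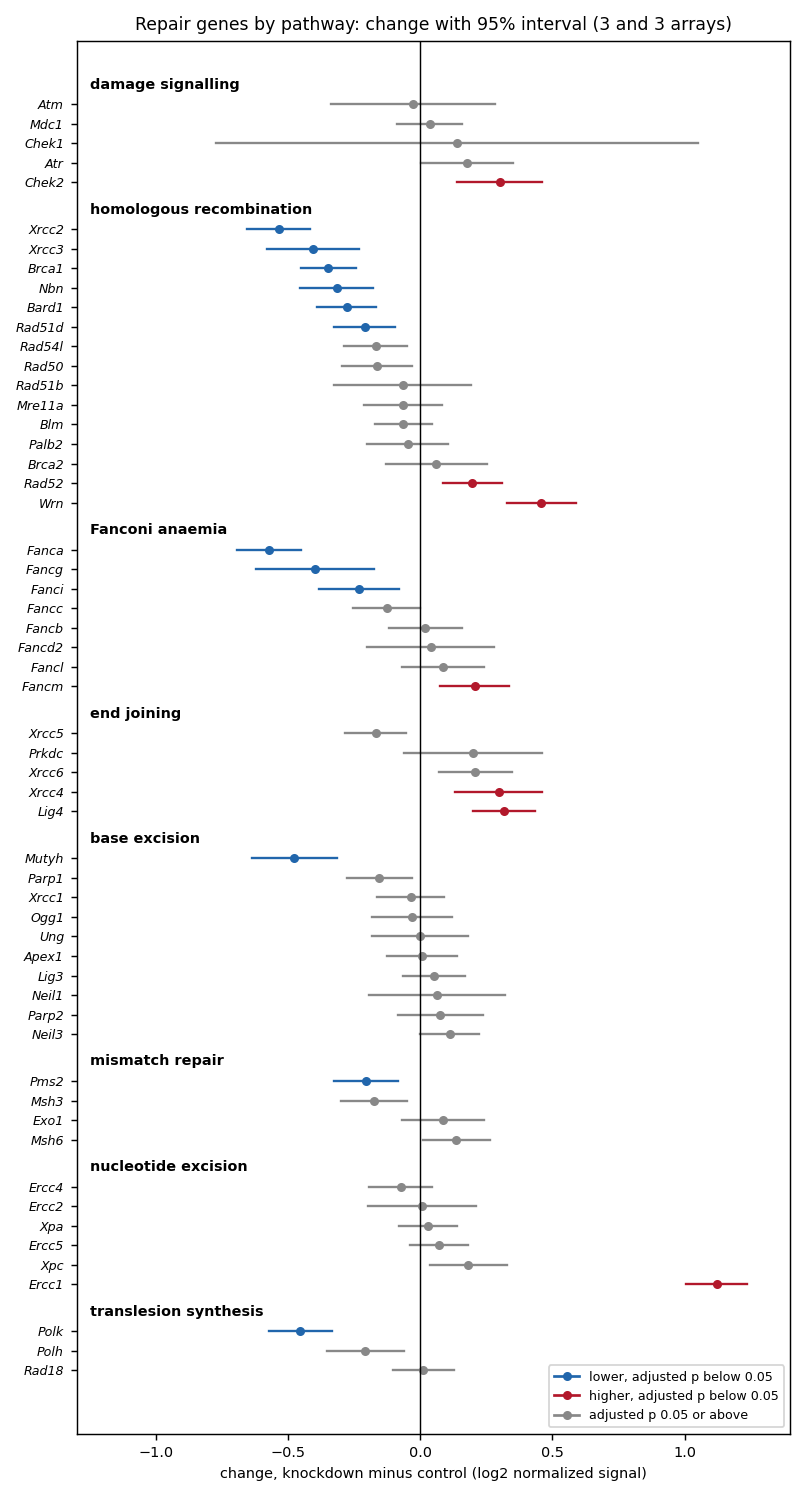
Change of the 56 tested repair genes, knockdown minus control in log2 normalized signal, grouped by pathway, with points for the estimate from 3 and 3 arrays and bars for its 95% interval. Most intervals cover 0 or lie close to it, Ercc1 at 1.12 stands far to the right of every other gene, and Chek1 has the widest bar.

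The promoters of the members with the largest changes are shown because NF-Y binds the CCAAT box. They are the 250 bases before the annotated start, 5′ to 3′ on the gene's strand, from RefSeq on GRCm38.p6, and capitals mark CCAAT or its reverse complement ATTGG. Fanca and Mutyh were among the 3 genes with the largest falls, and Ercc1 and Lig4 among the 3 with the largest rises. Xrcc2 and Wrn have no entry in the table used. The windows are chr8:123318577-123318826 on the minus strand for Fanca, chr4:116807484-116807733 on the plus strand for Mutyh, chr7:19344821-19345070 on the plus strand for Ercc1 and chr8:9977681-9977930 on the minus strand for Lig4.
Fanca: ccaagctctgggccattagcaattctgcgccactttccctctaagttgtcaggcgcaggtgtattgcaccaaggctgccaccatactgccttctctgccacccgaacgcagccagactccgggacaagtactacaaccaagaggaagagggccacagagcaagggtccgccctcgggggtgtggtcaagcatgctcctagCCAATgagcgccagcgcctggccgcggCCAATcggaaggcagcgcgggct
Mutyh: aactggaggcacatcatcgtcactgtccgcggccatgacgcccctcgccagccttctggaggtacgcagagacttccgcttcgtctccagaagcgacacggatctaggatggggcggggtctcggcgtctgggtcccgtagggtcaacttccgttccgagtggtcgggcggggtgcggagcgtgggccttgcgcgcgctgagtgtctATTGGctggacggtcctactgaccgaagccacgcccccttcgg
Ercc1: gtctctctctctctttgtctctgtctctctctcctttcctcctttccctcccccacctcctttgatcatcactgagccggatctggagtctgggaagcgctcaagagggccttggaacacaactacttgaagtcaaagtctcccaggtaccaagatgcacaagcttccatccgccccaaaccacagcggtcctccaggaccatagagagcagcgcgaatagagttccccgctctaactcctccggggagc
Lig4: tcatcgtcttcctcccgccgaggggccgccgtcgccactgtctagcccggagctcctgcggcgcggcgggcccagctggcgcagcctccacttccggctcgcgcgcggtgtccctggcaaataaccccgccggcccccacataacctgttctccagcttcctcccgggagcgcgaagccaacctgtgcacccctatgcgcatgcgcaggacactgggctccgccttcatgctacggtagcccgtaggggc
The Fanca window held the box at 50 and at 23 bases before the start. In Mutyh it stood in the reverse orientation at 43 bases, and the 250 bases before another Mutyh start, at chr4:116814069-116814318, held it at 24 bases. Neither the Ercc1 window nor either of the Lig4 windows, the other one at chr8:9976312-9976561, held these letters. The Mutyh window shown reaches into the gene model of its neighbour Toe1 and the first Lig4 window into that of Abhd13. The windows of Fanca and Ercc1 overlap no gene model but their own.

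Over all 48 repair genes in the promoter table, 24 (50%) held CCAAT on either strand within 250 bases before a start. The share was 37.5% of the 27025 genes in the table and 39.9% of the 13114 tested genes in it. The 48 include Rad51c, which was not tested and held no match. Of 9 lower genes with an entry, 5 held it (55.6%), namely Fanca, Mutyh, Xrcc3, Brca1 and Pms2. Of 6 higher genes 2 did, Chek2 and Fancm, and so did 17 of the 32 that did not pass, a share of 53.1%. Among all tested genes in the table the share was 50.7% of the 2084 lower, 37.8% of the 2053 higher and 37.8% of the 8977 that did not pass. These shares are a description with no test, and the lower and higher repair genes are few. Xrcc3 held 6 copies, the most among the lower genes. A match of 5 letters is not a measured binding site.

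**Figure D2:**
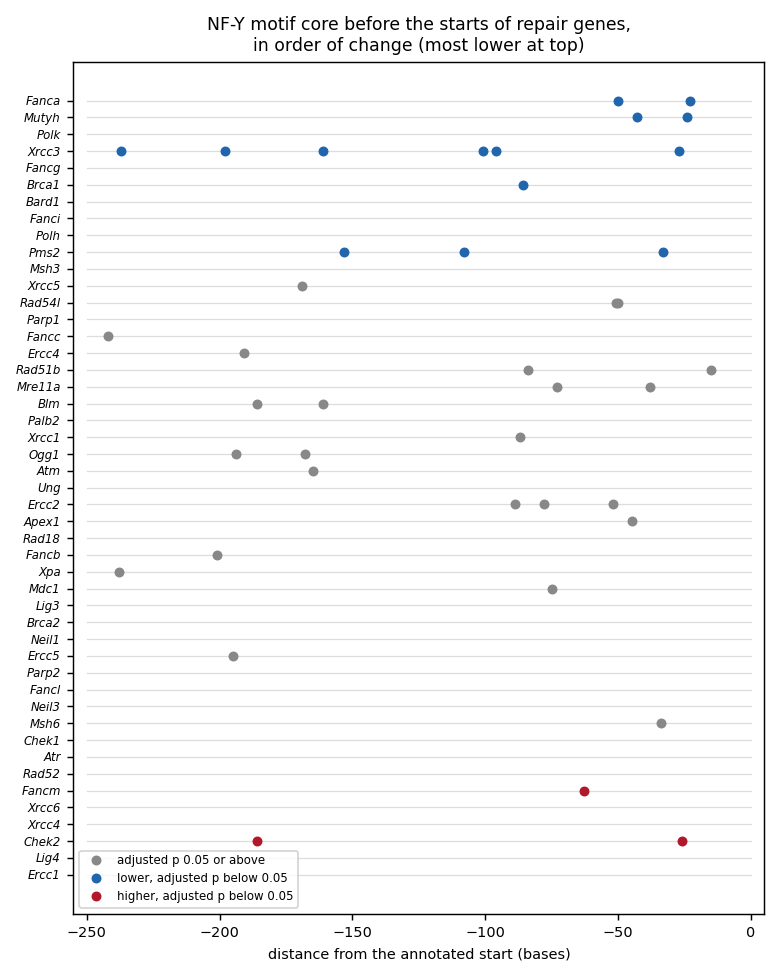
Positions of the CCAAT box on either strand in the 250 bases before the annotated starts, in bases from the start, for the tested repair genes with a promoter entry, ordered by change from the largest fall at the top to the largest rise at the bottom. Points stand for single matches and colours for the test result. Lower genes such as Fanca and Brca1, genes that did not pass and the higher genes Chek2 and Fancm all carry matches, while the line of Ercc1 is empty.

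Nucleotide excision repair cuts out bulky adducts, and ERCC1 is the partner of the XPF nuclease that makes the cut on one side of the lesion. Ercc1 lay at 0.57, 0.63 and 0.55 on the control arrays and at 1.74, 1.69 and 1.69 on the knockdown arrays. Every knockdown array was above every control by a wide margin. The rise was 1.12 (SE 0.05, limma adjusted p = 0.0004), or 2.17-fold. It held with slide row as a block at 1.16 (limma adjusted p = 0.0116). Ercc4, which encodes the nuclease XPF itself, lay at 2.44, 2.41 and 2.33 in control and at 2.34, 2.32 and 2.29 in knockdown. Those groups overlapped, and the change of -0.07 had a 95% interval from -0.20 to 0.05. The 95% interval of the change of Ercc1, singled out as the largest change, lay wholly above that of its partner. The difference between both changes was not tested. Ercc5 for the nuclease XPG (0.07), Ercc2 for the helicase XPD (0.01), Xpa for damage verification (0.03) and the damage sensor Xpc (0.18, adjusted p = 0.0805) did not pass. Ercc1 has a single probe on the array. Its gene model overlaps that of Cd3eap, whose own change was 0.08 (limma adjusted p = 0.265).

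Homologous recombination is the pathway with the most genes tested, 15, of which 6 were lower and 2 were higher, where 15.7% of all genes were lower and 15.7% higher. The median change was -0.16. With slide row as a block 1 gene was lower and 1 was higher, where 6.03% of all genes were lower and 5.46% higher. Xrcc2, Xrcc3, Rad51b and Rad51d encode related proteins that act early in strand exchange. Among them Xrcc2 lay at 0.09, 0.01 and 0.09 in control and at -0.49, -0.44 and -0.48 in knockdown. The groups were clearly apart, and the fall was -0.54 (SE 0.05, limma adjusted p = 0.0020), which held with slide row as a block at -0.56 (limma adjusted p = 0.0288). A dimmer second probe of Xrcc2 gave -0.07 with a 95% interval from -0.27 to 0.13 and did not pass, so the probes of this gene disagree. Xrcc3 lay at -0.22, -0.26 and -0.31 in control and at -0.59, -0.62 and -0.79 in knockdown. Its fall was -0.41 (SE 0.07, limma adjusted p = 0.0140), with knockdown 3 the lowest array. The Xrcc3 gene model overlaps that of Klc1, which fell by about as much (-0.39). Rad51d fell by 0.21 (limma adjusted p = 0.0293), a further probe of it gave -0.21 without passing, and Rad51b at -0.07 did not pass.

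BRCA1 and BARD1 form the ubiquitin ligase that promotes end resection. Brca1 lay at -1.67, -1.72 and -1.72 in control and at -2.06, -2.07 and -2.02 in knockdown, with little spread inside either group. The fall was -0.35 (SE 0.04, limma adjusted p = 0.0048) and came to -0.36 with slide row as a block (limma adjusted p = 0.0510). Bard1 fell by 0.28 on its brightest probe (limma adjusted p = 0.0111), while its other probes gave 0.14 and -0.11 and did not pass. Palb2, which bridges BRCA1 to BRCA2, and Brca2 itself changed by -0.05 and 0.06 with overlapping arrays. Nbn, a subunit of the break sensor MRN, lay at 0.25, 0.18 and 0.20 in control and at -0.12, -0.18 and -0.04 in knockdown. All knockdown arrays were below the controls, a fall of -0.32 (SE 0.05, limma adjusted p = 0.0144). The other MRN genes did not pass, Rad50 at -0.16 (limma adjusted p = 0.0848) and the nuclease Mre11a at -0.07, and neither did the translocase Rad54l at -0.17 (limma adjusted p = 0.0595) or the helicase Blm at -0.06.

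The higher genes of this pathway were the RecQ helicase and exonuclease Wrn and the annealing protein Rad52. Wrn lay at -1.47, -1.53 and -1.48 in control and at -0.98, -1.11 and -1.01 in knockdown. No arrays overlapped, and the rise was 0.46 (SE 0.05, limma adjusted p = 0.0042), or 0.51 with slide row as a block (limma adjusted p = 0.0340). A further Wrn probe stood well above background on none of the 6 arrays and was not tested. Rad52 lay at -0.12, -0.17 and -0.11 in control and at 0.10, 0.05 and 0.03 in knockdown. This was a smaller step, 0.20 (SE 0.04, limma adjusted p = 0.0325). The groups did not overlap, and Rad52 passed in 0 of the 6 fits that left out 1 array. Among other members that passed with all arrays, Fancm and Fanci also passed in 0 of those fits. Chek2, Fancg, Xrcc4, Rad51d and Pms2 passed in 1, Nbn and Xrcc3 in 4, and the rest in all 6.

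**Figure D3:**
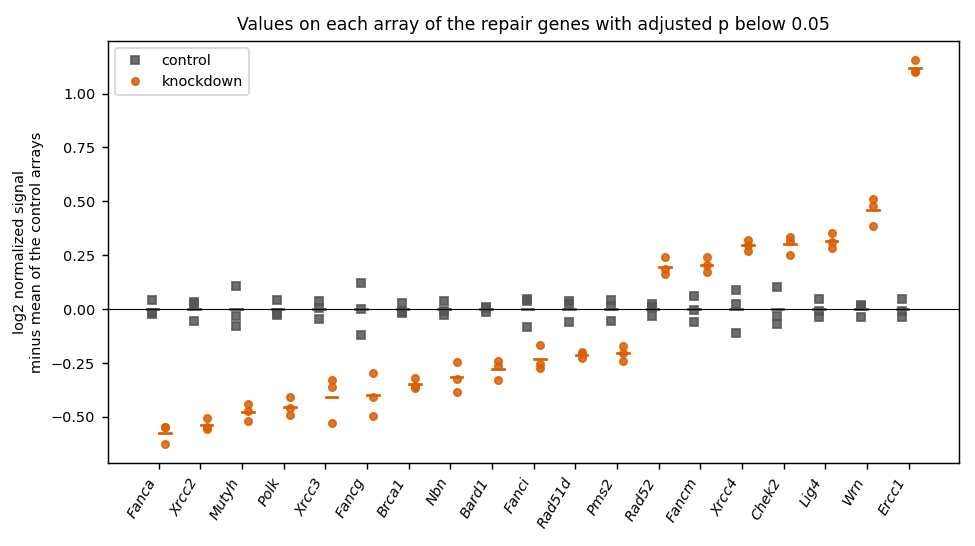
Values on each array of the 19 repair genes that passed the test, in log2 normalized signal minus the mean of the 3 control arrays, ordered from the largest fall to the largest rise, with squares for control arrays, circles for knockdown arrays and short lines for group means. In each gene the knockdown arrays lie all on one side of the controls, and the step for Ercc1 (1.12) is more than that of any other gene.

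In the Fanconi anaemia pathway 3 of 8 genes were lower and 1 was higher, where 15.7% of all genes were lower and 15.7% higher. FANCA and FANCG bind each other in the core complex, which attaches ubiquitin to FANCI and FANCD2 at crosslinks. Fanca lay at 2.15, 2.09 and 2.08 in control and at 1.56, 1.56 and 1.48 in knockdown. It showed the largest fall of the 56 genes, -0.57 (SE 0.05, limma adjusted p = 0.0018), and -0.55 with slide row as a block (limma adjusted p = 0.0297). Zfp276, whose gene model overlaps Fanca, changed by 0.11 and did not pass. Fancg lay at -2.02, -1.90 and -1.78 in control and at -2.40, -2.20 and -2.31 in knockdown. Its controls were the most spread among the lower genes in the plot of values by array, and the fall was -0.40 (SE 0.09, limma adjusted p = 0.0308).

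Of the ubiquitinated pair only Fanci passed. It fell by 0.23 (limma adjusted p = 0.0465), while Fancd2 at 0.04 had overlapping arrays and a 95% interval from -0.20 to 0.28, and the difference between both changes was not tested. Fancm, the translocase that anchors the core complex on DNA, lay at 0.24, 0.19 and 0.31 in control and at 0.48, 0.42 and 0.45 in knockdown. It rose by 0.21 (SE 0.05, limma adjusted p = 0.0430). The core complex genes Fancb (0.02), Fancc (-0.13) and Fancl (0.09), the last of which encodes the ubiquitin ligase, did not pass.

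Of the 5 end joining genes 2 were higher and none was lower, where 15.7% of all genes were higher and 15.7% lower, and the median change was 0.21. With slide row as a block none of the 5 passed, where 6.03% of all genes were lower and 5.46% higher. Both higher genes encode the final step, in which ligase 4 seals the ends on its scaffold XRCC4. Lig4 lay at 1.32, 1.35 and 1.41 in control and at 1.71, 1.64 and 1.67 in knockdown. The arrays of the groups were apart, with a rise of 0.32 (SE 0.05, limma adjusted p = 0.0091). Xrcc4 lay at -0.27, -0.41 and -0.21 in control and at 0.03, -0.03 and 0.00 in knockdown, a rise of 0.30 (SE 0.07, limma adjusted p = 0.0304). Under that block the rises were 0.35 and 0.32, with limma adjusted p = 0.0596 and 0.1405. The subunits of the Ku ring, which catches broken ends, pointed in opposite directions just short of the threshold: Xrcc6 (Ku70) at 0.21 (limma adjusted p = 0.0512) and Xrcc5 (Ku80) at -0.17 (limma adjusted p = 0.0540), each with arrays that did not overlap. With quantile normalization Xrcc6 passed at 0.28 (limma adjusted p = 0.0131) while Xrcc5 did not, at -0.12. With slide row as a block their changes were 0.22 and -0.13. The difference between the changes of both Ku genes was not tested. Prkdc, the catalytic subunit of DNA-PK, gave 0.20 with overlapping arrays.

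Damage signalling kinases sense breaks and stalled forks and halt the cell cycle. Here 1 of 5 genes, the checkpoint kinase Chek2, passed, where 15.7% of all genes were lower and 15.7% higher. It lay at -0.83, -0.79 and -0.66 in control and at -0.43, -0.51 and -0.44 in knockdown, a rise of 0.30 (SE 0.06, limma adjusted p = 0.0268). The kinase Atm that acts before CHK2 changed by -0.03 with overlapping arrays. Atr gave 0.18 with knockdown arrays all above the controls (limma adjusted p = 0.131), and the adaptor Mdc1 gave 0.04. Chek1, the kinase under ATR, had the poorest measurement of the 56 genes. It lay at -3.91, -3.84 and -3.97 in control and at -4.37, -2.99 and -3.94 in knockdown. Knockdown 2 alone was far above the rest, the 95% interval of its change ran from -0.77 to 1.05, and with slide row as a block the change was -0.46 (limma adjusted p = 0.517). No direction can be given for Chek1.

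In base excision repair 1 of 10 genes passed the test, where 15.7% of all genes were lower and 15.7% higher. That gene was Mutyh, the glycosylase that removes adenine paired with 8-oxoguanine. It lay at -1.95, -1.90 and -1.77 in control and at -2.39, -2.31 and -2.35 in knockdown. All knockdown arrays were lower, by -0.48 (SE 0.06, limma adjusted p = 0.0068), and with slide row as a block by -0.52 (limma adjusted p = 0.0543). Ogg1, whose glycosylase removes 8-oxoguanine paired with cytosine, changed by -0.03 with a 95% interval from -0.18 to 0.12. That interval does not reach the interval of Mutyh, which was singled out because it passed. The difference between both changes was not tested. The uracil glycosylase Ung (0.00), the abasic site endonuclease Apex1 (0.01), the scaffold Xrcc1 (-0.04), its ligase Lig3 (0.05), Parp2 (0.08) and the glycosylases Neil1 (0.06) and Neil3 (0.11) did not pass, nor did the polymerase Parp1 at -0.15 (limma adjusted p = 0.0791), whose knockdown arrays were all below the controls.

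In mismatch repair 1 of 4 genes was lower, where 15.7% of all genes were. Pms2, the endonuclease subunit of MutL alpha, fell by 0.20 (limma adjusted p = 0.0359), and a further probe gave -0.18 without passing. Msh3, which encodes a subunit of MutS beta, missed the threshold on its brightest probe at -0.18 (limma adjusted p = 0.0596), while both of its further probes were lower, by -0.26 and -0.25 (limma adjusted p = 0.0228 and 0.0277). It was the only member whose further probes passed where the brightest did not. Msh6 (0.14) and the exonuclease Exo1 (0.09) did not pass.

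Of the translesion genes 1 of 3 passed, where 15.7% of all genes were lower and 15.7% higher. Polk, the polymerase kappa, lay at 0.07, 0.08 and 0.14 in control and at -0.36, -0.39 and -0.31 in knockdown. The groups were well apart and the fall was -0.45 (SE 0.05, limma adjusted p = 0.0032), with -0.46 under the slide row block (limma adjusted p = 0.0411). A dimmer further probe of Polk gave 0.00 and did not pass. Polh, for polymerase eta, had all knockdown arrays below the controls at -0.21 (limma adjusted p = 0.0572), and Rad18, the ligase that marks PCNA for these polymerases, gave 0.01.

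**Figure D4:**
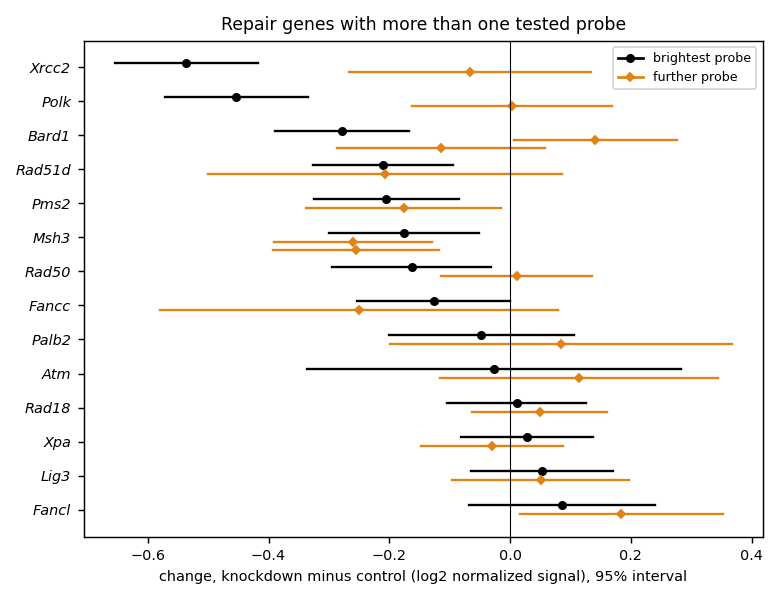
Change with its 95% interval (log2, knockdown minus control, 3 and 3 arrays) on the brightest probe and on each further tested probe of the 14 repair genes that had one. The further probes of Xrcc2 (-0.07) and Polk (0.00) lie near 0 where the brightest ones do not, those of Rad51d and Pms2 lie at or near the brightest, and those of Bard1 lie on both sides of 0.

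Counted over probes, 15 repair genes had 17 further probes, of which 16 were tested. On the members that passed there were 6 such probes, and none passed in either direction. The calls of Xrcc2, Polk and Bard1 therefore rest on 1 probe each out of several, and those of Rad51d and Pms2 have a further probe of like size with a wider interval. Some members that did not pass overlap gene models that did, such as Ogg1 with Camk1 (-0.58), Lig3 with Rffl (1.13), Fancb with Mospd2 (-0.63) and Ercc2 with Klc3 (-0.48).

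**Figure D5:**
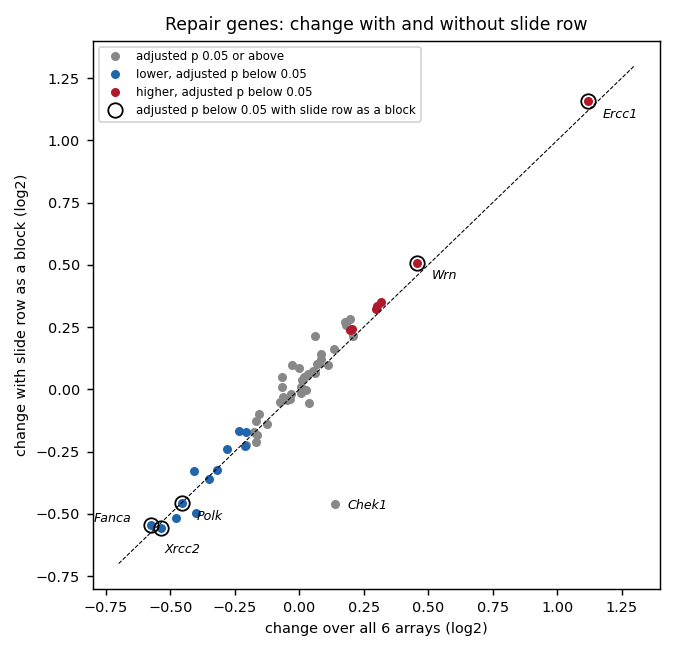
Change of each of the 56 repair genes over all 6 arrays (horizontal, log2) against the change with slide row as a block (vertical, log2), which sets knockdown 1 against the 3 controls. The points follow the dashed line of equality apart from Chek1, and rings mark the 5 genes that passed with the block, Fanca, Xrcc2, Polk, Wrn and Ercc1.

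Other repair genes, 102 outside the 57 and assigned to the same pathways, also moved both ways. Of 101 tested, 20 were lower (19.8%) and 17 were higher (16.8%), where 15.7% of all genes went each way. The median change of the 101 was -0.02. With slide row as a block 4 were lower and 1 higher, where 6.03% of all genes were lower and 5.46% higher. Fancf, another core complex gene, was the only one past 1.5-fold. It lay at 1.45, 1.38 and 1.59 in control and at 0.69, 0.55 and 0.68 in knockdown, a fall of -0.83 (SE 0.08, limma adjusted p = 0.0023).

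By pathway the counts of the other repair genes did not always follow those of the 57. Over all genes 15.7% were lower and 15.7% higher. The lists hold few genes each, and differences between the counts were not tested. Other homologous recombination genes were lower in 4 and higher in 5 of 18, where the members were lower in 6 and higher in 2 of 15. Other end joining genes were lower in 2 and higher in 1 of 7, where none of the 5 members was lower. Other translesion genes were higher in 4 of 9 and lower in none. These 4, named after their values were seen, were Rev1 at 0.34, Rev3l at 0.53, Ube2b at 0.16 and Primpol at 0.22, the first and second of which encode translesion polymerases. None of them passed with slide row as a block (limma adjusted p = 0.0693, 0.0889, 0.185 and 0.119). Other nucleotide excision genes were lower in 5 and higher in 1 of 16, and other base excision genes were lower in 1 and higher in 1 of 17. Counts in other damage signalling genes were 5 lower and 4 higher of 20, in other Fanconi genes 2 lower and 1 higher of 10, and in other mismatch genes 1 lower and 0 higher of 4.

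The p53 targets and proliferation genes stand beside these results because both respond to DNA damage or cycling. Of 19 tested p53 targets that are not members, 6 were lower (31.6%) and 1 was higher (5.26%), where 15.7% of all genes went each way. With slide row as a block 2 of them were lower and 1 was higher, where 6.03% of all genes were lower and 5.46% higher. Cdkn1a, the cell cycle inhibitor p21, fell from 2.23, 2.21 and 2.19 to 1.20, 1.08 and 1.25, by -1.03 (limma adjusted p = 0.0007), and the death receptor gene Tnfrsf10b rose by 0.90. Of 20 proliferation genes 5 were lower (25%) and none was higher, or 3 lower with slide row as a block. Aurkb at -1.70 and Rrm2 at -0.62 were past 1.5-fold. Among all genes 4.99% fell and 3.91% rose by that much. Whether the p53 targets and proliferation genes moved with the repair genes for a shared reason was not tested.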

How the data were processed

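RNA of 6 samples (3 control, 3 knockdown, grouped by the sample titles) was hybridised to 1-colour arrays of 55681 probes. Scans were read by the authors in Agilent Feature Extraction 10.10.1.1. The deposited tables hold one processed signal per spot, a background-corrected intensity on a linear scale, with flags. The deposited series matrix holds log2 values with no stated scale or centring. Differences between its arrays matched those of the scaling used here to within 0.0076 over 43557 probes, so it equals that scaling up to a constant for each probe.

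Control and outlier spots were left out, the 75th percentile of each array was subtracted from log2 intensity, and spots of a probe were averaged. Probes lacking a value (245) or below the 20th percentile of their array on at least 1 array in both groups were set aside, which left 42208. Symbols came from RefSeq (GRCm38.p6) by accession, matched for 26564 of 27163 curated probes. Knockdown and control were set against each other in limma 3.58.1 (R 4.3.3) by lmFit with eBayes, in a two-sided test without covariates, adjusted over all probes tested, and the code was tested on simulated data. With 3 arrays a group, their number limits the precision. The members and lists were chosen with earlier results of these data known. Named genes were the members past 1.5-fold, up to 8 lower and 8 higher members with the largest changes that passed (7 higher did), and other repair genes past 1.5-fold, while other members are given by change. Alternatives covered scaling, normexp (offset 50), dim-probe filters, an intensity trend, array weights, blocks, averaging of probes and leaving out arrays. Normexp was run on the deposited median intensity because the tables used here hold no mean signal column.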

Additional observations from a re-analysis of the deposited data

How the results depend on the processing

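Over 18 alternatives, 250 of 342 values of the 19 genes that passed kept their direction and their side of the threshold, 92 kept only the direction and 0 reversed. Ercc1, Fanca, Polk and Xrcc2 passed under all 18, whereas Fanci and Pms2 did not pass under 11 each and Rad52 and Fancm under 10 each. The lower and higher counts of 12 and 7 became 11 and 1 when arrays were scaled to their median, which shifted the median of all genes by -0.12, put 3 repair genes past a 1.5-fold fall, moved their median change to -0.1141 and raised the share of lower genes among the calls from 63.2% to 91.7% (over all genes from 49.95% to 74.5%). Under that scaling, then, the rises other than that of Ercc1 did not pass. With quantile normalization the median was 0.02755, and after normexp with quantile normalization it was 0.01677 with 11 higher. Over all 16612 genes tested after normexp, 2823 were lower and 3348 higher. Without a filter on dim probes 8 repair genes were lower and 4 higher, and with an intensity trend 18 and 11. Over all genes these settings gave 2078 lower and 2029 higher of 20095, and 3449 and 3473 of 16510. Lower counts of repair genes were also 16 when genes had to be well above background. They were 15 with the percentile filter on all 6 arrays and 14 after normexp. Over all genes the lower counts were 2968 of 14553 when well above background and 2714 of 15665 with that percentile filter. With the mean of a gene's probes 9 repair genes were lower, and the changes of Xrcc2 and Polk came to -0.30 and -0.23. Over all 16510 genes 2452 were lower with that mean. With slide row as a block 3 repair genes were lower and 2 higher, where 6.03% of all genes were lower and 5.46% higher. Same-numbered arrays deviated together with correlations of 0.016, 0.066 and 0.0023, so the numbers are not taken as pairs. A replicate block gave 6 repair genes lower and 2 higher, against 1596 lower and 1325 higher over all 16510 genes. Leaving out each array in turn gave 7 to 10 repair genes lower, 3 to 5 higher and 0 to 1 past a 1.5-fold fall. Their median change ran from -0.02524 to 0.01201. Over all genes those fits gave 1670 to 2031 lower and 1539 to 1902 higher. The lower count of repair genes was 7 without control 1, control 2 or knockdown 1. Their higher count was 3 without any array but control 3. The cause was not tested. All members were well above background, and whether dimness bears on their calls was not tested.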
